A study of Mus musculus with 58 samples.

Results

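The replication-dependent histone genes were followed in chromatin-associated RNA (ChrRNA-seq) of mouse embryonic stem cells (mESCs) and of the same lines during differentiation to neural precursor cells (NPCs). The genes were taken by symbol alone: every gene of the count files whose symbol starts with Hist1h, Hist2h, Hist3h or Hist4h. This gave 59 genes of 22556, with 6 for the linker histone H1, 14 for H2A, 17 for H2B, 10 for H3 and 12 for H4. The H2B set includes the pseudogene Hist3h2bb-ps. GENCODE has 70 genes with such a symbol, of which 11 are not in the count files, so sums and shares below leave them out. All 59 entered the test, and 57 had at least 1 fragment in every library. The 58 libraries came from 6 female lines of a 129S x Cast hybrid background, in all of which the Xist promoter of the 129S allele, called Dom here, had been replaced by a promoter that doxycycline switches on. WT is that parental line, and SPOC carries in addition point mutations in the SPOC domain of the silencing factor SPEN. In PCGF35 the Polycomb proteins PCGF3 and PCGF5 carry an FKBP12 degron, so that the compound dTAG-13 leads to their degradation, and PCGF35_SPOC combines the degron with the SPOC mutation. DelPID lacks the B/C repeat of Xist (the PID region), and DelPID_SPOC adds the SPOC mutation, which for this line is given by the sample titles alone.

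Libraries were made from mESCs without doxycycline (day 0) or with doxycycline at 1 ug/mL for 1 day, and from cultures in NPC medium with doxycycline for 3 or 6 days. WT and DelPID were sequenced at the NPC time points only. The PCGF35 and PCGF35_SPOC lines were sequenced untreated (ctrl) and with dTAG-13 added 12 hours before doxycycline, at a concentration the labels give as 100 uM, and a line with its treatment is called an arm below. Each of the 28 groups held 2 libraries, apart from SPOC mESCs on days 0 and 1 with 3 each. Replicates of the SPOC lines are single clones (C11, D9 and H1 of SPOC, F10 and F6 of PCGF35_SPOC, A8 and G3 of DelPID_SPOC), of which the study describes F6 as subcloned and G3 as tetraploid, while the other lines were cultured repeatedly from 1 line. NPC cultures therefore differ from day 0 mESCs in medium, in time and in doxycycline, and mESCs were grown on fibroblast feeders that were removed by pre-plating.

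Histone proteins package DNA, and a dividing cell must double its supply of them while it copies its genome. Replication-dependent histone genes meet this demand: they sit in clusters, mostly lack introns, are transcribed in S phase at histone locus bodies organised by NPAT, and their mRNAs end not in a poly(A) tail but in a stem-loop that is bound by SLBP. The core histones H2A, H2B, H3 and H4 form the nucleosome, and H1 binds the linker DNA between nucleosomes. The replication-independent histones, such as H3.3, are not confined to S phase and are made from separate polyadenylated mRNAs.

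The stem-loop is shown first because it is the shared sign of the family. The pattern GGNNCTTTTNANNGCC was found on the transcribed strand of GENCODE vM21 transcripts for 35 of the 59 genes and for 28 of the 55271 other genes (0.0507%). Capitals mark bases that differ from the most frequent form.
most frequent form, 20 genes (3 H1, 6 H2A, 8 H2B, 3 H3): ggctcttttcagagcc
form of 6 H4 genes, among them Hist1h4d, Hist1h4f and Hist1h4h: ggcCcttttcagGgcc
form of 6 genes (1 H1, 2 H2B, 3 H3): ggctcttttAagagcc
form of Hist1h4i and Hist2h4: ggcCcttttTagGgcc
form of Hist2h2ac: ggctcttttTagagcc
All 8 H4 genes with a match carried a changed base pair in the stem, and none of the 27 genes of the other types did. A gene without a match has transcripts in this annotation in which these letters do not occur.

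Promoter windows from RefSeq (GRCm38.p6, 250 bases before to 50 bases after the annotated start) were matched for 53 of the 59 genes. 5 sets of letters were searched in them: TATAAA on the strand of the gene, and on both strands CCAAT, the octamer ATTTGCAT, AAACACA as in the H1 box, and GGTCCG as in the H4 element bound by HINFP. None of the 5 contains another. GGTCCG was present in 10 of 11 H4 promoters, 1 of 14 H2B, 1 of 8 H3, and none of the 6 H1 or 14 H2A promoters, against 8.36% of the 26972 other promoters. In the H4 windows it began at positions -47 to 6, with a median of -39, counted from 0 at the first transcribed base. CCAAT showed the opposite layout, with a match in all 42 matched promoters of H1, H2A, H2B and H3 and in 3 of 11 H4 promoters (37.8% of the others). The octamer was found in 7 of 14 H2A and 6 of 14 H2B promoters and in none of the H1, H3 and H4 promoters (1.71% of the others). AAACACA was found in 5 of 6 H1 promoters (7.12% of the others), and TATAAA in 28 of the 53 (8.79%). These matches are a description of the windows and say nothing of occupancy.

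4 windows are printed because the levels of these genes are described most closely below: the H4 gene with the highest level per length in mESCs, the H4 gene on chromosome 13 that rose most, the matched H4 gene without GGTCCG, and the H2A gene that fell most. Capitals mark a match to any of the 5 sets of letters.
Hist1h4d, chr13:23581318-23581617, plus strand: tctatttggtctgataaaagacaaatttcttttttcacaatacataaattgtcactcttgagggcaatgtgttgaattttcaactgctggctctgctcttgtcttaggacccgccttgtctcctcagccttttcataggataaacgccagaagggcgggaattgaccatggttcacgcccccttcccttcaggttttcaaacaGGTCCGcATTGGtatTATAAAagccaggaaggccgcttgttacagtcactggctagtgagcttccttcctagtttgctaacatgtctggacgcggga
Hist1h4h, chr13:23530794-23531093, plus strand: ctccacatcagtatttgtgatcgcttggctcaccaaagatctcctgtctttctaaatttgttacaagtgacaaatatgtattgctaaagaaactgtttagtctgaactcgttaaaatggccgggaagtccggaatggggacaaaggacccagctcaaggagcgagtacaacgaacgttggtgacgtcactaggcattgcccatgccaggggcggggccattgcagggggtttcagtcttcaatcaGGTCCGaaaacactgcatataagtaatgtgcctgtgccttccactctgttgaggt
Hist1h4a, chr13:23761200-23761499, minus strand: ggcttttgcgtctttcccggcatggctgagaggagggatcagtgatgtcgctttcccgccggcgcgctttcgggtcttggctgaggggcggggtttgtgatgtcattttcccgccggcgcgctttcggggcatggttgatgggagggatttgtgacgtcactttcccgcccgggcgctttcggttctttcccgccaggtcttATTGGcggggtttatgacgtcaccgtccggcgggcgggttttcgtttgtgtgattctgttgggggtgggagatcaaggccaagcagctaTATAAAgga
Hist1h2aa, chr13:23934187-23934486, plus strand: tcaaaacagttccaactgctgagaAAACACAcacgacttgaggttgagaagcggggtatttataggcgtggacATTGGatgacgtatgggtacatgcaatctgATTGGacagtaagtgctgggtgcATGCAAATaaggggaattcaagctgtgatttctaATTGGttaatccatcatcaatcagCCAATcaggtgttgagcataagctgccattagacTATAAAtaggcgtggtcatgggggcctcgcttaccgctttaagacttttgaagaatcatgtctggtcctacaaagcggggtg
In the Hist1h4a window TATAAA begins at position 41, after the annotated start, while in those of Hist1h4d and Hist1h2aa it begins at position -32.

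The genes lie in 4 places of mm10. The Hist1 cluster on chromosome 13 holds 49 of them between 21715712 and 23934913, the Hist2 cluster on chromosome 3 holds 6 between 96219915 and 96270192, the Hist3 cluster on chromosome 11 holds 3 between 58948910 and 58955192, and Hist4h4 lies alone on chromosome 6. Fragments were counted over the whole annotated span of a gene, on its strand, and only where they aligned to 1 place. Near-identical copies therefore lose fragments: the median share of 81-base stretches of a transcript that occur in no other gene of the annotation was 99.3% for H1, 56.2% for H2A, 68.1% for H2B, 50.0% for H3 and 77.8% for H4, and was under 50% for 18 genes. Levels below are levels of the uniquely aligned part, and 4 H2B genes with annotated spans over 1000 bases (Hist1h2be, Hist1h2bc, Hist2h2be and Hist1h2bp) also collect fragments from introns or read-through.

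In units of 1000000 gene fragments, depth ran from 2.29 to 30.0 per library, with a median of 15.9, and the 2 shallowest libraries were the first replicates of DelPID on NPC days 6 and 3. The identity of the cultures was checked by marker genes: of 9 pluripotency genes tested, 8 fell and none rose between mESCs and NPC day 6, and of 6 neural genes 3 rose and none fell. Of 7 fibroblast genes 2 rose and 1 fell, with a summed level of 15.8 to 61.4 CPM (counts scaled to 1000000 gene fragments per library) in day 0 mESCs and 23.7 to 195 CPM on NPC day 6, and 4 of 5 endoderm and mesoderm genes rose, from 5.15 to 23.3 CPM to between 5.22 and 173 CPM. Their part in the results below was not tested.

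Together the 59 genes made up between 0.0379% and 0.172% of the gene fragments of a library. Their summed level in day 0 mESCs ran from 409 to 1723 CPM with a median of 918 CPM over 13 libraries. Day 1 mESCs gave 549 to 1244 CPM (median 848), the 12 NPC day 3 libraries of the same 6 arms gave 527 to 1091 CPM (median 757), and the 12 NPC day 6 libraries gave 744 to 1430.2 CPM (median 1046). The ranges of all 4 stages overlapped.

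**Figure D1:**
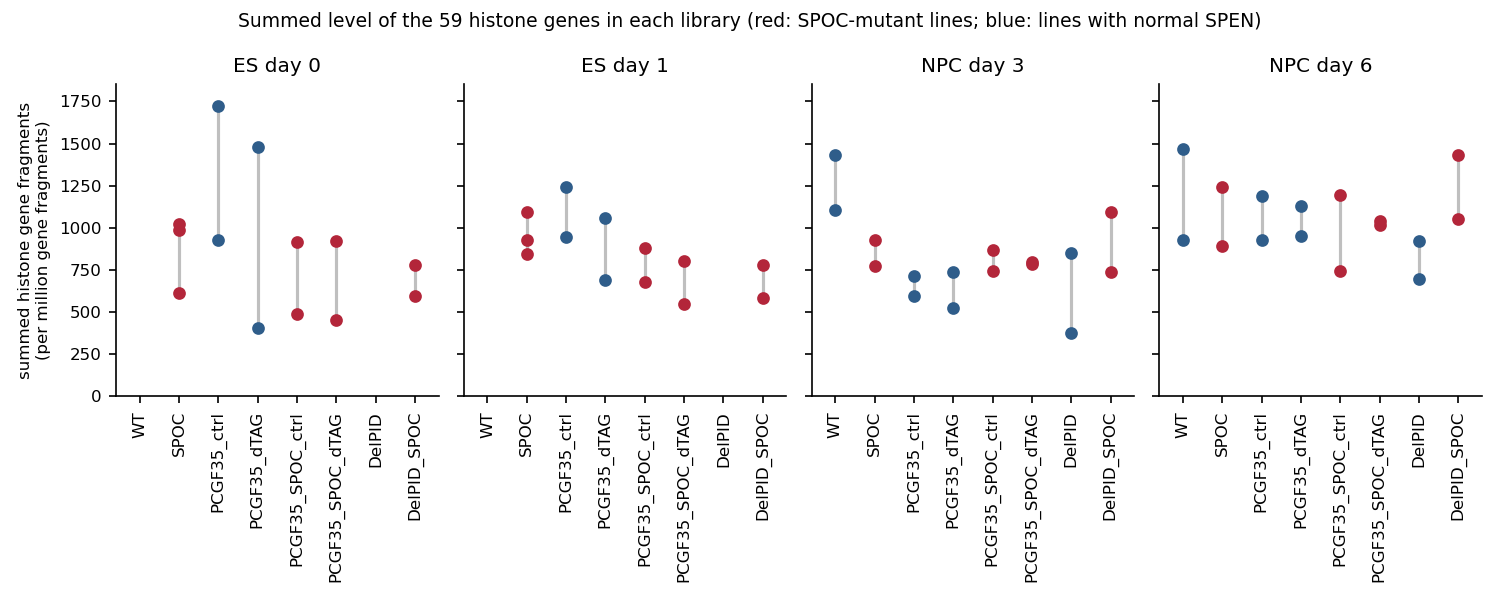
Summed level of the 59 histone genes (y axis, CPM) in each of the 58 libraries, with 1 panel per stage and 1 position per line and treatment. Each point is 1 library, red for SPOC-mutant lines and blue for the others, a grey line joins the lowest and highest library of a group, and WT and DelPID have no ES libraries. The libraries of ES day 0 spread widest, from 409 to 1723 CPM.

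Levels per length, in CPM per kilobase of annotated span, were compared in day 0 mESCs (mean ± SD, n = 13). H1 had the highest median over its genes at 77.1 CPM per kb, followed by H3 at 22, H4 at 18.1, H2B at 13.9 and H2A at 6.58. Among the linker histones, Hist1h1a reached 127 ± 52.2, Hist1h1c 95 ± 54.4 and Hist1h1d 93.2 ± 41.3 CPM per kb, which did not differ beyond their spread, and Hist1h1t, the testis form, stood at 1.85 ± 0.74. The highest gene of all was the H2B gene Hist2h2bb at 152 ± 60.7 CPM per kb, which in GENCODE shares its strand with the long noncoding RNA Gm42743. Hist1h2bg with 53.1 ± 24.5 and Hist1h2bb with 39.7 ± 11.2 CPM per kb followed among the H2B genes. Hist3h2a (21.3 ± 12.5), Hist2h2ac (14.2 ± 11.5) and Hist1h2aa (12.3 ± 9.91) led the H2A genes, within the spread of one another. Among H3 genes Hist1h3e stood at 63.5 ± 29.2, Hist1h3f at 29.2 ± 19.9 and Hist1h3g at 28.2 ± 18.6 CPM per kb. Hist1h4d at 84.2 ± 44.0, Hist1h4i at 51.3 ± 18.8 and Hist1h4f at 41.1 ± 19.6 CPM per kb led the H4 genes.

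The main comparison asked how these levels changed from day 0 mESCs to NPC day 6, as the mean difference over the 6 arms that have both. Of the 59 genes 29 rose and 5 fell by edgeR's quasi-likelihood test at an adjusted p under 0.05, while 58.9% of all genes tested were called, 29.4% in each direction. A call as such is thus common in this comparison, and the count of rises is read against 29.4%. The fit, here and in the steps below, takes libraries as independent, although PCGF35 and PCGF35_SPOC each enter both untreated and treated. In PCGF35_SPOC both arms are clones F10 and F6. Deviations over the 59 genes correlated between these arms with r 0.878 on ES day 0 and 0.673 on NPC day 6. The p-values may thus be too small. Without clone F6 16 genes rose and 7 fell, where 27.4% of all genes tested were higher and 28.1% lower, so that the share of rises in the family was then near that of all genes. By type 10 of 12 H4 genes rose without that clone (median 0.89), against 4 of 14 H2A, 1 of 17 H2B, 0 of 10 H3 and 1 of 6 H1 genes. The median log2 fold change was 0.42 over the 59 genes and 0.0047 over all genes. The types differed in their counts: 11 of 12 H4 genes rose and none fell (median 1.19), against 6 risen and 1 fallen of 14 H2A genes (0.38), 5 and 1 of 10 H3 genes (0.37), 1 and 1 of 6 H1 genes (0.20) and 6 and 2 of 17 H2B genes (-0.05). In bulk RNA of this kind a change in the share of cells in S phase and a change in RNA per cell cannot be told apart.

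**Figure D2:**
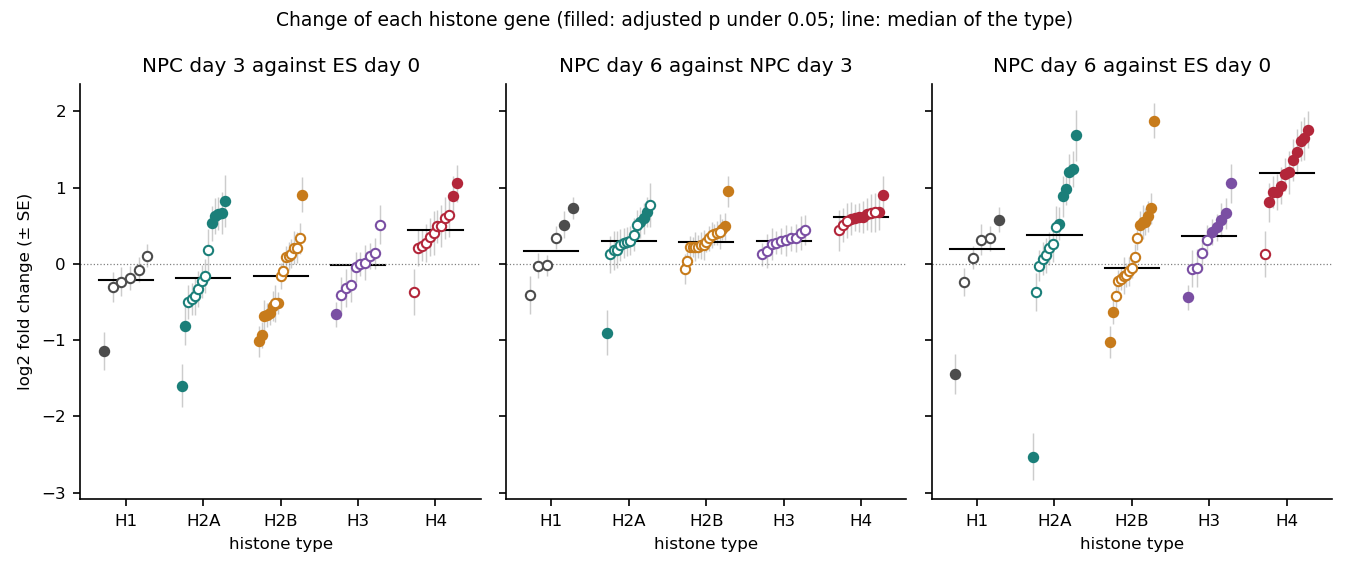
Log2 fold change (y axis, with its SE as a grey bar) of each of the 59 genes by histone type (x axis), in 3 panels for NPC day 3 against ES day 0, NPC day 6 against NPC day 3 and NPC day 6 against ES day 0. Filled points passed an adjusted p under 0.05 and the black line is the median of a type. In the last panel the H4 genes lie between 0.13 and 1.76, and the H2A genes spread from -2.53 to 1.69.

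H4 is encoded by many genes with the same product, and its genes moved from both large and small levels. Hist1h4d, the H4 gene with the highest level per length, ran from 6.08 to 57.4 CPM in day 0 mESCs (median 31.2, n = 13) and from 41.3 to 94.6 CPM on NPC day 6 (median 59.1, n = 12). The lowest NPC libraries lay within the mESC range, and the log2 fold change was 0.95 ± 0.24 (SE, adjusted p = 0.00108). Hist1h4h gave 1.71 to 15.8 CPM (median 7.96) in mESCs and 12.7 to 47.0 CPM (median 25.4) on NPC day 6. The ranges met only between 12.7 and 15.8 CPM, with a log2 fold change of 1.65 ± 0.28 (adjusted p = 7.8e-06). Hist2h4 of the Hist2 cluster rose most among the H4 genes, from 1.08 to 8.81 CPM (median 4.10) to between 6.90 and 20.8 CPM (median 13.4), a log2 fold change of 1.76 ± 0.24 (adjusted p = 2.1e-07).

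Hist1h4j (1.61 ± 0.26), Hist1h4b (1.47 ± 0.29), Hist1h4m (1.36 ± 0.27), Hist1h4k (1.20 ± 0.29), Hist1h4f (1.18 ± 0.22), Hist1h4c (1.03 ± 0.25), Hist1h4i (0.94 ± 0.21) and Hist4h4, alone on chromosome 6 (0.81 ± 0.25), also rose on the log2 scale, with adjusted p from 3.4e-06 to 0.0067 in edgeR's test. The exception was Hist1h4a, which ran from 2.3 to 38.8 CPM in mESCs (median 16.8) and from 10.4 to 36.8 CPM in NPCs (median 19.0). Its NPC libraries thus lay inside the mESC range (log2 fold change 0.13 ± 0.30, adjusted p = 0.72). Its promoter window lacks GGTCCG, while Hist2h4 had no matched window, and a link of these letters to the change was not tested. The share of unique 81-base stretches was 58.5% for Hist1h4h and 65.4% for Hist1h4a.

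The share of the H4 genes within the family was higher on NPC day 6 as well. H4 varied more between replicates than the family did (SD of the log2 summed level within groups 0.667 against 0.459), and the lowest H4 share was that of the library with the lowest summed level of day 0, so the share is not independent of the total. H4 made up 7.39% to 20.2% of the summed histone CPM in day 0 mESCs (median 14.7%), 14.8% to 23.1% in day 1 mESCs (median 18.3%), 15.7% to 22.6% on NPC day 3 (median 20.8%) and 20.7% to 28% on NPC day 6 (median 24.7%). Every NPC day 6 library lay above every day 0 mESC library, while day 1 mESCs lay in between and overlapped both. The share of H2B moved the other way, from 24.4% to 36.2% (median 26.1%) in day 0 mESCs to between 17.0% and 24.7% (median 21.9%) on NPC day 6, and that of H1 from 32.9% to 43.1% (median 37.8%) to between 30.8% and 36.0% (median 33.9%). The shares of H2A (medians 6.25% and 6.77%) and H3 (14.4% and 12.7%) overlapped widely between the 2 stages.

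**Figure D3:**
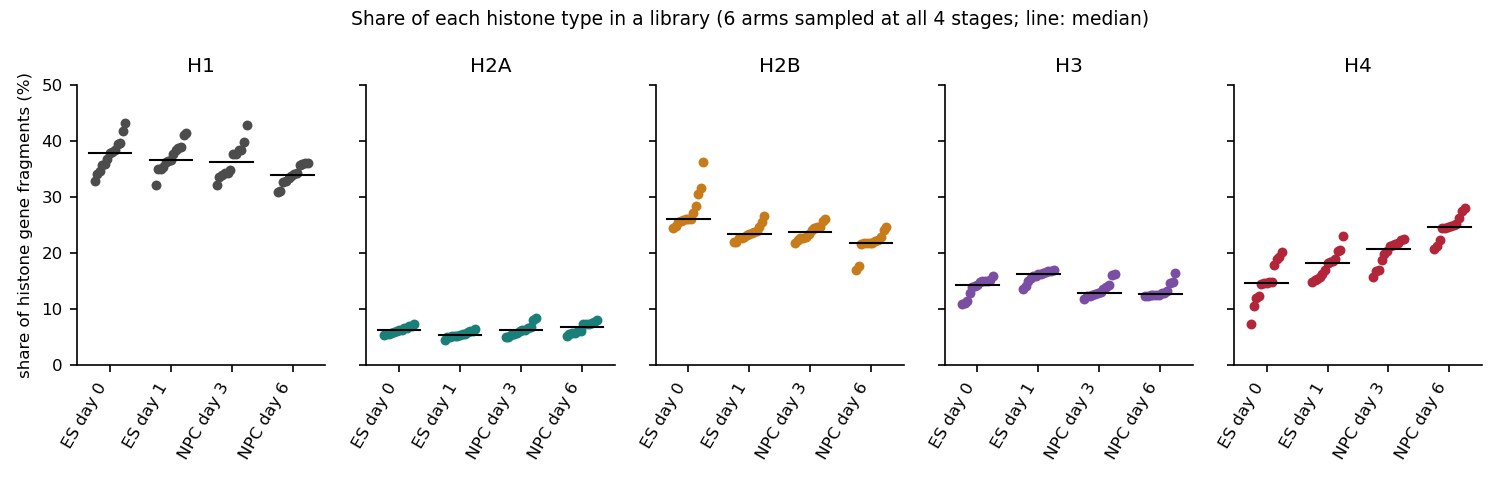
Share of each histone type in the summed level of the 59 genes (y axis, percent) by stage (x axis), with 1 panel per type. Each point is 1 library of the 6 arms sampled at all 4 stages, in order of value within a stage, and the black line is the median. The H4 share is at most 20.2% in ES day 0 libraries and at least 20.7% on NPC day 6.

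The largest rise outside H4 was that of Hist3h2ba, an H2B gene of the Hist3 cluster with a low level in mESCs. It ran from 0.563 to 2.36 CPM in day 0 mESCs (median 1.14) and from 1.33 to 8.21 CPM on NPC day 6 (median 4.84), a log2 fold change of 1.88 ± 0.23 (edgeR, adjusted p = 2.5e-08). Its neighbour Hist3h2a had a log2 fold change of 0.20 ± 0.22 (adjusted p = 0.44). Of the H2A genes, Hist1h2af rose by 1.69 ± 0.34 on the log2 scale (medians 1.07 and 3.51 CPM), Hist1h2ab by 1.25 ± 0.24 (3.63 and 9.12 CPM) and Hist1h2ai by 1.21 ± 0.23 (3.17 and 8.13 CPM). Hist2h2ab, Hist2h2ac and Hist1h2ak also passed the test, with 0.99, 0.88 and 0.53. The H3 genes that rose, none of which passed without clone F6, were Hist2h3b (1.06), Hist1h3h (0.67), Hist1h3e (0.58), Hist1h3i (0.48) and Hist1h3a (0.42), and the further H2B genes were Hist1h2bl (0.73), Hist1h2bf (0.62), Hist1h2bk (0.56), Hist1h2bh (0.55) and Hist1h2bj (0.51).

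5 genes fell, and 2 of them are forms known from the testis. Hist1h2aa, the testis H2A, ran from 1.47 to 15.8 CPM in day 0 mESCs (median 2.96) and from 0.122 to 2.10 CPM on NPC day 6 (median 0.814), a log2 fold change of -2.53 ± 0.31 (edgeR, adjusted p = 2.4e-08). Hist1h1t, the testis linker histone, ran from 0.433 to 2.3 CPM (median 1.47) and then from 0.182 to 0.908 CPM (median 0.470), a log2 fold change of -1.45 ± 0.27 (adjusted p = 2.3e-05). Hist1h2ba, the testis H2B that shares a promoter region with Hist1h2aa, had medians of 3.25 and 3.48 CPM and a log2 fold change of -0.42 ± 0.21 (adjusted p = 0.077). Hist2h2be fell by 1.03 (medians 2.23 and 1.09 CPM), Hist1h2bp by 0.63 (8.16 and 5.36 CPM) and the H3 gene Hist1h3d by 0.44 (11.6 and 8.31 CPM) on the log2 scale. Hist2h2be and Hist1h2bp have annotated spans over 1000 bases, so their counts also hold fragments from introns or read-through.

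Of the linker histones in somatic use, Hist1h1e alone passed the test: it ran from 23.6 to 73.4 CPM in mESCs (median 37.8) and from 39.9 to 85.3 CPM on NPC day 6 (median 55.8), a log2 fold change of 0.58 ± 0.16 (edgeR, adjusted p = 0.0021). Hist1h1d had 0.34 ± 0.16 (adjusted p = 0.075), Hist1h1c 0.32 ± 0.20 (0.17), Hist1h1a 0.08 ± 0.15 (0.66) and Hist1h1b -0.24 ± 0.19 (0.28). Hist1h1b ranged from 20.4 to 103 CPM in mESCs and from 25.7 to 46.6 CPM on NPC day 6, so that its mESC range enclosed the other. Hist2h2bb, the gene with the highest level per length, stayed within the mESC range too, with medians of 68.5 and 69.2 CPM (log2 fold change -0.05 ± 0.13, adjusted p = 0.76).

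H2A and H2B genes often stand head to head, and 11 such pairs with starts 172 to 305 bases apart were present. These are 22 genes in all, counting the pseudogene Hist3h2bb-ps. Between mESCs and NPC day 6 both genes of a pair passed the test in the same direction in 1 pair (Hist1h2bl and Hist1h2ai), both passed in opposite directions in 1 pair, 1 gene passed in 6 pairs and neither in 3. The opposite pair was Hist2h2ac and Hist2h2be, whose starts are 240 bases apart, with 0.88 and -1.03 on the log2 scale. The count of Hist2h2be also holds fragments from introns or read-through over its long span. Hist2h2ac rose from a median of 5.30 CPM (1.37 to 21.2) to 11.9 CPM (6.80 to 15.4). The fold changes of the 2 genes had the same sign in 8 of the 11 pairs. For comparison, 50% of the 14 H2A and 47.1% of the 17 H2B genes were called, and 4775 of all 16227 genes rose and 4775 fell. The fold change was above 0 for 11 of the 14 H2A and 8 of the 17 H2B genes. Whether the genes of a pair move together was not tested.

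The NPC day 3 libraries divide this change into 2 steps that share their middle time point, and the first step shares its mESC libraries with the comparison above. From day 0 mESCs to NPC day 3, 8 of the 59 genes rose and 11 fell, while 55.6% of all genes were called (26.4% higher, 29.2% lower), and the median over the 59 genes was 0.00038. The genes that fell were again led by Hist1h2aa (-1.60 ± 0.28 on the log2 scale), Hist1h1t (-1.14 ± 0.25) and Hist2h2be (-1.02 ± 0.21), followed by Hist1h2bp (-0.93 ± 0.17) and Hist1h2an (-0.81 ± 0.26), and 7 of the 11 were H2B genes, among them Hist1h2ba, Hist1h2bc, Hist1h2be, Hist1h2bg and Hist1h2bb. Of these H2B genes Hist2h2be, Hist1h2bp, Hist1h2bc and Hist1h2be have annotated spans over 1000 bases. Their counts also hold fragments from introns or read-through, whose part in the fall was not tested. The genes that rose were Hist2h4 (1.06 ± 0.24), Hist3h2ba (0.91 ± 0.23), Hist1h4j (0.89 ± 0.26), and the H2A genes Hist1h2af (0.83 ± 0.34), Hist2h2ac (0.67 ± 0.27), Hist2h2ab (0.66), Hist1h2ab (0.63) and Hist1h2ai (0.53), with adjusted p from 0.00038 to 0.046 in edgeR's test. Only 2 of the 12 H4 genes passed here, with a median of 0.45 over the type.

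From NPC day 3 to day 6, over all 8 arms, 16 genes rose and 1 fell, while 21.3% of all genes were called (10.6% higher, 10.8% lower). The fold change was above 0 for 54 of the 59 genes, with a median of 0.35. Other lists moved over the same days: 4 of 5 endoderm and mesoderm genes rose (median 1.55, summed level 3.72 to 49.5 CPM on day 3 and 5.22 to 173 CPM on day 6), as did 3 of 6 neural genes, while 7 of 24 S phase genes and 6 of 11 chaperone and assembly genes fell and none rose. The part of these cells and genes in the result was not tested. H4 again had the most calls, 7 of 12 (median 0.61), with none among the 10 H3 genes. Hist1h4h ran from 4.86 to 37.5 CPM on day 3 (median 13.3, n = 16) and from 12.7 to 47.0 CPM on day 6 (median 25.4, n = 16), a log2 fold change of 0.91 ± 0.24 (edgeR, adjusted p = 0.0079). Hist3h2ba rose by 0.95 ± 0.20 (adjusted p = 0.00097), Hist1h1e by 0.73 ± 0.14 (0.00044), Hist1h4m by 0.68 ± 0.24 (0.037) and Hist3h2a by 0.68 ± 0.20 (0.014), and Hist1h2aa fell by 0.90 (0.026). This count of 17 calls rested on the libraries used. It was 28 without the second replicate of DelPID on day 3 and 27 in a fit of the NPC libraries alone. It was 8 to 11 without 1 of 10 others: the day 3 libraries of DelPID replicate 1, DelPID_SPOC replicate 1 and, in the degron lines, untreated PCGF35 replicate 1, treated PCGF35 replicate 1 and untreated PCGF35_SPOC replicate 1, and the day 6 libraries of WT replicate 1, untreated PCGF35 replicate 2, untreated PCGF35_SPOC replicate 2, DelPID_SPOC replicate 2 and SPOC replicate 1. It was 7 to 10 without 1 clone and 9 without the 2 shallowest libraries, where 14% to 27.2% of all genes were called over single libraries and 12.2% to 27.8% over clones, and the median over the 59 genes stayed between 0.30 and 0.50 in all of these. No share over all genes is given for the fit of the NPC libraries alone or without the 2 shallowest libraries.

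Single arms gave different medians on the way to NPC day 6, and the arms were not tested against each other here. The median over the 59 genes was -0.25 in untreated PCGF35, whose first replicate had the highest summed level of all libraries on day 0, and lay between 0.34 and 0.74 in the other 5 arms. The median over the H4 genes was above 0 in all 6 arms, from 0.58 in untreated PCGF35 to 1.59 in DelPID_SPOC. Within single arms 2 to 12 of the 59 genes passed the test, where 5.37% to 34.1% of all genes were called, so that these counts do not set the family apart. On NPC day 3 the medians were -0.74 and -0.37 in untreated and treated PCGF35 and 0.06 to 0.47 in the other 4 arms. Between NPC days 3 and 6 the median was -0.10 in WT and 0.21 to 0.73 in the other 7 arms.

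The genes that act with the histone genes were taken as lists. Their calls are read against all 16227 genes tested, of which 4775 rose and 4775 fell in this comparison. Of 14 genes for transcription and 3' end processing of histone RNA, 2 rose and 7 fell between mESCs and NPC day 6. Those with the largest change were Upf1, an RNA helicase of decay (0.46 on the log2 scale), Cstf2, a cleavage factor (-0.39), Pou2f1, which encodes the octamer-binding OCT1 (-0.34), and Npat (-0.33). Of 11 chaperone and assembly genes 2 rose and 4 fell, among them Atrx (-1.16), Daxx (0.83) and Hat1 (-0.64). Cstf2 and Atrx lie on the X chromosome, and the NPC cultures carried doxycycline, which starts Xist expression. The part of Xist in their fall was not tested. Of 11 replication-independent histone genes tested 1 rose and 3 fell: H3f3b, 1 of the genes for H3.3, fell by 1.07 (medians 261 and 105 CPM), while H3f3a had -0.05 ± 0.09 (adjusted p = 0.66) and H2afz 0.17 ± 0.11 (0.19). Of 24 S phase genes 5 rose and 9 fell, with a median of -0.11, among them Tk1 (0.69), Gins2 (0.61), Ccne2 (-0.69) and Mcm4 (-0.62). The summed level of the S phase list had medians of 2096 CPM in day 0 mESCs and 1709.5 CPM on NPC day 6 (ranges 1471 to 2569 and 1460 to 2004), where that of the H4 genes went from 134 to 268 CPM.

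Doxycycline for 1 day in mESCs, which also starts Xist expression, was tested as the mean of day 1 minus day 0 over 6 arms. None of the 59 genes passed the test, with 0.0924% of all genes called (0.037% higher, 0.0555% lower). An unadjusted p under 0.05 was found for 6 of the 59 (10.2%) and for 4.05% of all genes. DESeq2 called none of the 59 either, and the median was 0.010. By type the fold change was above 0 for all 12 H4 genes (median 0.18) and 9 of 10 H3 genes (0.087). It was below 0 for 14 of 17 H2B (-0.25), 9 of 14 H2A (-0.20) and 5 of 6 H1 genes (-0.069). Histone genes of a library moved together between replicates, as given below, so counts of signs are not counts of separate observations. dTAG-13 was tested over both degron lines, in a fit that leaves out the pairing of treated and untreated libraries by clone or replicate. With the replicate block, described at the end, genes were called in NPC cultures, none of them a histone gene. The counts over all genes below belong to the unpaired fit. In mESCs no gene of the 59 and 0% of all genes were called, and DESeq2 called none of the 59. An unadjusted p under 0.05 was found for 1 histone gene (1.69%) and for 1.45% of all genes. The summed level was 488 to 1723 CPM (median 921) in the 8 untreated and 409 to 1481 CPM (median 746) in the 8 treated mESC libraries. The fold change was below 0 for 57 of the 59 genes (median -0.28), a size that the spread between replicates in this unpaired fit did not allow to be told from 0. The replicate block called none of the 59 here either. In NPC cultures 0% of all genes and no histone gene passed. DESeq2 called none of the 59 and the median was 0.0010 (594 to 1195 CPM untreated, 527 to 1129 CPM treated). No histone gene had an unadjusted p under 0.05, against 7.02% of all genes. The test of whether the change from mESCs to NPC day 6 differed with dTAG-13 called 0% of all genes and none of the 59. DESeq2 called none of the 59 (median difference 0.39). None of the 59 had an unadjusted p under 0.05, against 2.39% of all genes.

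The SPOC mutation in mESCs was tested in the degron lines, as PCGF35_SPOC minus PCGF35 over days 0 and 1 with and without dTAG-13, 8 libraries a side. The 8 PCGF35_SPOC libraries are 2 clones sampled 4 times each. The deviations from the group means were correlated within a clone (r 0.82 to 0.841 over all genes). In PCGF35 they were correlated between mESC libraries with the same replicate number (r 0.187 to 0.667). In the group fit, which takes libraries as independent, 16 of the 59 genes were lower and none higher, while 12.5% of all genes were called (6.09% higher, 6.4% lower). With clone as a random term (limma, added after seeing the data) 1 gene of the 59 was lower, Hist1h2be, which is among the genes with spans over 1000 bases. In that fit 3.39% of all genes were called, and the PCGF35 libraries were still taken as independent. The other 15 calls of the group fit thus did not pass once the clones were taken into account. The fold change was below 0 for 58 of the 59, with a median of -0.57 against 0.014 over all genes. By type 3 of 6 H1, 4 of 14 H2A, 6 of 17 H2B, 3 of 10 H3 and none of 12 H4 genes were lower in the group fit, to which the p-values below also belong, and the H4 genes had a median of -0.42. Hist1h1b ran from 20.4 to 103 CPM (median 49.6) without and from 22.4 to 42.5 CPM (median 31.3) with the mutation, a log2 fold change of -0.97 ± 0.23 (edgeR, adjusted p = 0.0077). Hist2h2ac had medians of 5.44 and 3.96 CPM (-1.08 ± 0.35, adjusted p = 0.038), Hist1h2ak 7.51 and 4.17 CPM (-0.99 ± 0.27, 0.017) and Hist2h2be 2.25 and 1.27 CPM (-0.99 ± 0.25, 0.0097). Hist1h2ae (-1.01), Hist1h2ad (-1.01), Hist1h3g (-0.95), Hist1h3f (-0.87), Hist1h1c (-0.87), Hist1h1a (-0.65) and Hist1h3d (-0.64) passed as well. The ranges of the 2 lines overlapped for every gene.

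**Figure D4:**
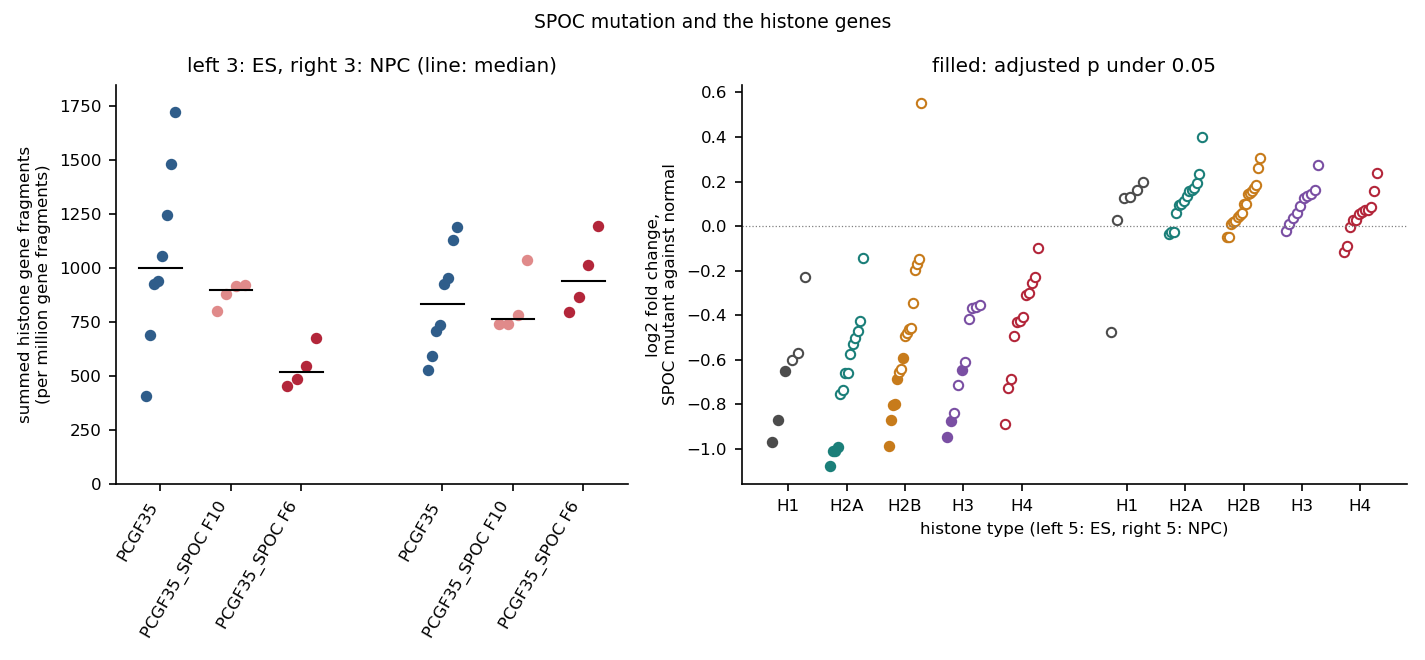
Left, summed level of the 59 genes (y axis, CPM) in the PCGF35 line and in clones F10 and F6 of PCGF35_SPOC, in ES cells (left 3 positions) and NPC cultures (right 3), where each point is 1 library, with days and dTAG-13 treatment together, and the line is the median; in ES cells F10 lies between 800.3 and 924 CPM, F6 between 455 and 676 CPM and PCGF35 between 409 and 1723 CPM. Right, log2 fold change of each gene with the SPOC mutation (y axis) by histone type, in ES cells (left 5 positions, PCGF35_SPOC against PCGF35) and NPC cultures (right 5, mean of 4 backgrounds), with filled points for an adjusted p under 0.05; 16 genes are filled in ES cells and none in NPC cultures.

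The count of calls moved with the clones used. The 4 mESC libraries of clone F10 had summed levels of 800.3 to 924 CPM and the 4 of clone F6 had 455 to 676 CPM, where PCGF35 had a median of 999.6 CPM. Without the libraries of F10, 41 genes were lower (median -0.999), where 32.6% of all genes were called, and without those of F6 2 were (median -0.26), where 9.88% were. The count was 2 without the first PCGF35 replicate of day 0, untreated or treated, 5 without the first untreated PCGF35 replicate of day 1, 5 or 6 without any 1 of the 4 F6 libraries, and 27 without the second treated PCGF35 replicate of day 0. Over these single libraries 3.75% to 16.2% of all genes were called. The count was 2 on day 0 alone (median -0.71), 0 on day 1 alone (median -0.44) and 1 in a fit of the 16 libraries alone (median -0.56). For these fits no share over all genes is given, so their counts are not read as a result about the family. The summed level of the pluripotency list was lower as well, at 1891 to 2417 CPM without and 1474 to 1751 CPM with the mutation. Of its 9 genes tested 1 was called, Zfp42 (-0.82), with a median of -0.29 over the list. Of the 24 S phase genes 2 were called, Ccne1 (-0.51) and Tk1 (-0.32), where 988 of all 16227 genes were higher and 1039 lower. These counts do not set the lists apart from all genes. The part of these differences in the result was not tested.

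In NPC cultures the SPOC mutation, averaged over 4 backgrounds and both days, gave no call among the 59 genes, while 8.62% of all genes were called (5.47% higher, 3.16% lower). No histone gene had an unadjusted p under 0.05, against 22.7% of all genes. DESeq2 called none of the 59 and the median was 0.10 (379 to 1465 CPM over 16 libraries without and 737 to 1430.2 CPM over 16 libraries with the mutation). The single backgrounds pointed both ways: the median was -0.68 for SPOC against WT on day 3, and 0.57 and 0.60 for DelPID_SPOC against DelPID on days 3 and 6, where the DelPID side includes the 2 shallowest libraries. The test of whether the change from mESCs to NPC day 6 differed between PCGF35_SPOC and PCGF35 called 0.00616% of all genes and none of the 59. An unadjusted p under 0.05 was found for 8 of the 59 (13.6%) and for 11.4% of all genes, and the median difference over the 59 was 0.51. DESeq2 called none of the 59, and 7 of the 59 were called without clone F10, where 7.51% of all genes were.

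Replicates of 1 group differed in their whole histone level. Over the 32 pairs of libraries within a group the ratio of the summed levels was 1.02 to 3.62, with a median of 1.33, and in 10 pairs it was over 1.5. In these 10 pairs 51 to 59 of the 59 genes were higher in the same library. The extreme pair was PCGF35 with dTAG-13 on day 0, with 1481 CPM in the first and 409 CPM in the second replicate. The summed level of 8 mostly cytoplasmic mRNAs was higher in the same library in 24 of the 32 pairs (9 of the 10), that of the S phase genes in 22 (9 of the 10) and that of the replication-independent histone genes in 24 (8 of the 10). Their part in the spread was not tested.

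The alleles were a readout that the choice of genes did not use. Fragments that carry a strain difference were assigned to Dom or Cast, and 39 of the 59 genes had at least 100 such fragments over all libraries. The share of Dom had a median of 0.511 over these genes and ran from 0.201 (Hist1h2bj) to 0.993 (Hist1h4m), where the 15240 other autosomal genes had a median of 0.521 and a 5th to 95th percentile of 0.301 to 0.729. Hist1h2bj and Hist1h4c (0.245) lay below that range and 3 genes above it, and the Dom share of Hist1h2bj and Hist1h4c was below 0.5 in each of the 56 libraries with at least 20 allelic fragments. Hist1h3b (0.718) and Hist1h4k (0.739) were above 0.5 in each of 57 libraries. Hist1h4m rests on 272 allelic of 7326 fragments, and genes without strain differences in their unique part, such as Hist1h4f and Hist2h4, had 0 allelic fragments. Whether such shares reflect the alleles or the alignment was not tested.

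**Figure D5:**
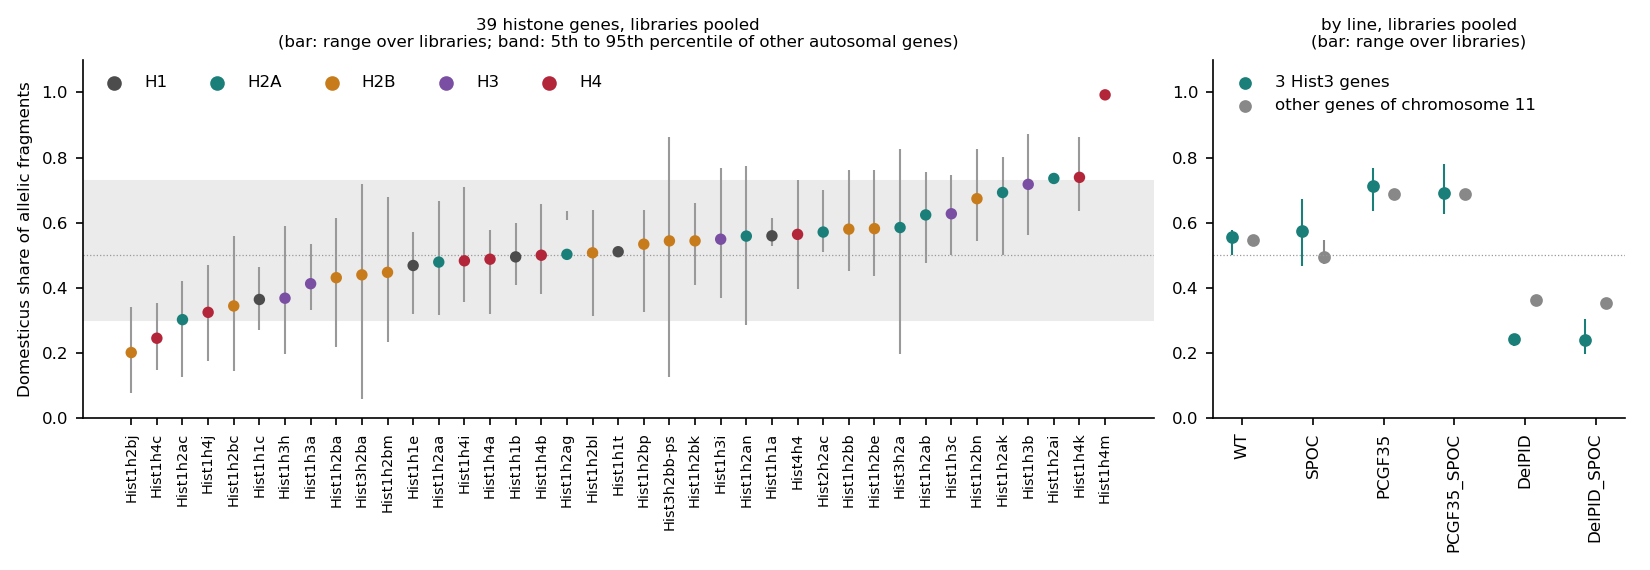
Left, share of Dom in the allelic fragments (y axis) of the 39 genes with at least 100 such fragments, in order of share and coloured by histone type; a point pools all libraries, the bar is the range over single libraries with at least 20 allelic fragments and the band is the 5th to 95th percentile of other autosomal genes. The extremes are Hist1h2bj at 0.201 and Hist1h4m at 0.993. Right, the same share by line for the 3 Hist3 genes and for the fragments of all other genes of chromosome 11, pooled over libraries, with the range over libraries as a bar.

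Summed over a cluster, the 49 Hist1 genes had Dom shares of 0.510 to 0.532 in the 6 lines. The 3 Hist3 genes on chromosome 11 differed by line: the share was 0.556 in WT and 0.576 in SPOC, 0.713 in PCGF35 and 0.692 in PCGF35_SPOC, and 0.243 in DelPID and 0.239 in DelPID_SPOC. The other genes of chromosome 11 had median shares of 0.543, 0.496, 0.688, 0.685, 0.365 and 0.353 in the same order of lines, so that the PCGF35 lines were the highest and the DelPID lines the lowest for both. Pooled over lines, a share of a Hist3 gene is therefore a mixture.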

How the data were processed

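ChrRNA-seq libraries of 58 mESC and NPC cultures were analysed. The authors removed rRNA reads with Bowtie2 2.3.2, aligned the rest to N-masked mm10 with STAR 2.4.2a, keeping pairs that align to 1 place, assigned them to an allele (SNPsplit) and used featureCounts for stranded counts over each gene span. The deposited files give raw counts per library for all fragments, Cast fragments and Dom fragments, with no pooling or normalization. Fragments carry no molecular identifiers, so low counts are known to counting error only at best. Groups came from the labels. Replicates of the SPOC lines are clones and those of the other lines are repeated cultures, so p-values measure the spread between these libraries.

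Total counts were tested with edgeR 4.0.16 (quasi-likelihood test, TMM, filterByExpr by group) in R 4.3.3, with 1 mean per group over all 58 libraries (30 residual degrees of freedom) and Benjamini-Hochberg adjustment over 16227 genes at 0.05. CPM are counts scaled to 1000000 gene fragments per library. The steps were tested on simulated data for 16039 genes: for NPC day 6 against ES day 0, 57% of genes changed by 1 on the log2 scale and 91% of those changed by 2 were recovered, and for the SPOC mutation in ES cells 43.4% and 82.8%. Alternatives were DESeq2 1.42.0, its size factors in edgeR, no filter on low counts, only the libraries compared, TMM-scaled CPM, leaving out each library or clone, and the replicate block. limma 3.58.1 (voom, with clone as a random term and every other library on its own), leaving out the 2 shallowest libraries, mESC days apart and the block for the SPOC contrasts were alternatives added after seeing the data. Named genes were the 3 with the highest level per length of each type, up to 10 called genes per direction in the main comparison and up to 5 in the others (at least 1 CPM on 1 side), the H1 and testis genes and some H2B, Hist3 and Hist4 genes. Genes named beyond that rule, such as Hist1h4a, were chosen after their values were seen. The histone genes, the lists and the sequence motifs were chosen with earlier results of these data known. No proteins were printed, and 6 promoters had no match.

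Pairing was checked by the correlation of deviations from the group means. Clones pair the libraries of a SPOC line because a clone is 1 cell line (0.219 to 0.841 in PCGF35_SPOC, 0.270 to 0.771 in DelPID_SPOC, -0.0475 to 0.540 in SPOC). Replicate numbers of PCGF35 pair treated and untreated libraries of a day (0.188 to 0.658). Over all pairs of PCGF35 groups, across days as well, r was -0.0257 to 0.667. It was 0.447 in WT and 0.388 in DelPID. No library repeated another (chi-square per degree of freedom 10.9 to 129 within groups).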

Additional observations from a re-analysis of the deposited data

How the results depend on the processing

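The call and direction of the histone genes in the comparison of NPC day 6 with day 0 mESCs held under DESeq2, its size factors and no filter on low counts (34 of 34 calls shared in each) and, for 28 of 34, in a fit of the libraries compared alone. Over single libraries left out the count of calls was 28 to 39 and over clones 23 to 36, the lowest without clone F6 (16 higher, 7 lower). Of all genes 55.4% to 58.8% were called over these libraries and 54.3% to 58% over clones. For NPC day 3 against day 0 mESCs the count of histone genes was 14 to 27 and 15 to 25. There 51.9% to 55.1% and 50.9% to 54.1% of all genes were called. Of 36 called gene and comparison pairs that were repeated, none turned its direction, with 1207 of 1350 repeats on the same side of the threshold. These pairs were picked as the largest called changes of the same data, and repeats that leave out 1 library share all others. A turned direction was therefore unlikely from the start. Other genes named in the text were not followed in this way. The count for NPC day 6 against day 3 (17) was 8 to 28 over single libraries and 7 to 10 over clones A8, D9, F10, F6, G3 and H1, 27 with only the libraries compared and 9 without the 2 shallowest libraries. Of all genes 14% to 27.2% were called over single libraries and 12.2% to 27.8% over clones. For the SPOC mutation in mESCs (16) the count of histone genes was 2 to 27 over single libraries, 2 without clone F6, 41 without clone F10, 1 with only the libraries compared, 1 with clone as a random term in limma, 2 on day 0 alone and 0 on day 1 alone. Of all genes 3.75% to 16.2% were called over single libraries and 9.88% to 32.6% over clones. For 1 day of doxycycline the count of histone genes was 0 to 1 over single libraries, for the SPOC mutation in NPC cultures 2 without clone F10, and for its interaction with differentiation 7 without clone F10. Of all genes 0.0543% to 0.115% were called over single libraries for doxycycline. Over clones it was 5.92% to 21.9% for the SPOC mutation in NPC cultures and 0.484% to 7.51% for its interaction. The cause of these shifts was not tested.

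The replicate block, with clone or replicate number as a term, gave 35 calls for NPC day 6 against mESCs, 20 for NPC day 3, 18 for day 6 against day 3 and 23 in place of 16 for the SPOC mutation in mESCs, where it takes out the spread between clones that this comparison needs, and 0 in the other comparisons, so that no count moved by over 1.5 times. No share over all genes is given beside these block counts, so they are not read as a result about the family. Over all genes the block raised the calls for dTAG-13 in NPC cultures from 0 to 536, none of them a histone gene. TMM-scaled CPM left the log2 ratio of the H4 medians at 1.04 against 1.01.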
